A study of Mus musculus with 2 samples.

Results

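Mitotic cells of the pooled culture were the 1044 of 13045 vascular smooth muscle cells (VSMCs) with the highest summed expression of 7 genes of the G2 and M phases, Ccnb1, Ccnb2, Cdc20, Plk1, Hmmr, Ube2c and Cenpf. For each cell, the count of each gene per 10000 unique molecular identifiers (UMIs, each standing for 1 captured RNA molecule) was taken as its natural log after adding 1, the 7 values were summed, and the top 8% of cells were compared with the 12001 other cells. The measured expression of the 7 genes therefore chose the cells, and a difference between the mitotic and the other cells in any gene is a description of that choice and not a test. Primary aortic VSMCs of C57BL/6 mice, bought from commercial suppliers and used within a few passages, made up 4 groups. These were cells of young mice aged 12 weeks, cells of old mice aged 58 to 78 weeks, young cells given angiotensin II (AngII, 100 nM, 48 h), and old cells in which siRNA against Piezo1 (siPiezo1, 20 nM by the sample labels) had been introduced. Cells of each group were marked with an antibody that carries a DNA barcode (TotalSeq-A hashtag), mixed, and sequenced as 1 droplet library, so that each hashtag stands for 1 culture with no replicate. No test between hashtags was therefore made, and all intervals are exact 95% intervals that cover counting error only.

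The labels pair no hashtag with a group, and hashtags are called here by number. A drawing in the study puts 1 beside the young cells, 2 beside the old, 3 beside those with AngII and 4 beside those with siPiezo1, and does not say that these number the hashtags. Hashtag 1 was called in 3117 cells, hashtag 2 in 573, hashtag 3 in 1468 and hashtag 4 in 1512, while 1068 cells carried several and 5307 carried none above background. Piezo1, the mechanosensitive cation channel that the siRNA targets, was at 71.9 counts per 1000000 UMIs (CPM) in other cells with hashtag 1, 88.1 with hashtag 2, 109 with hashtag 3 and 86.1 with hashtag 4. Piezo1 was thus lowest with hashtag 1 and within counting error in hashtags 2 and 4, so the target gene does not check which hashtag marked the siPiezo1 cells.

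A cell enters mitosis when cyclin B, the product of Ccnb1 and Ccnb2, activates the kinase CDK1. PLK1 helps to build the spindle, HMMR binds its microtubules, and CENPF joins the kinetochores, the protein plates on which chromosomes are pulled. Exit from mitosis follows when the anaphase-promoting complex, a ubiquitin ligase switched on by CDC20 and fed by the ubiquitin-conjugating enzyme UBE2C, marks cyclin B for destruction. In the artery wall VSMCs rarely divide, whereas in culture or after injury they lower their contractile genes and enter the cell cycle.

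Promoters of such genes are known for a short element, the cell cycle genes homology region (CHR), and for CCAAT boxes, which lie close to the start of transcription. The promoter windows of the 7 genes of the score are shown because the 7 genes were measured together in the same cells. Each window runs from 250 bases before to 50 bases after the gene start, 5′ to 3′ on the strand of the gene, from RefSeq (GRCm38.p6), and capitals mark every match on either strand. The letters searched for the CHR were TTTGAA, with TTTAAA as its known variant, which reads alike on both strands. The letters searched for the CCAAT box were CCAAT. A match to the opposite strand appears as TTCAAA for the former element and as ATTGG for the latter.
Ccnb1, chr13:100786437-100786736, minus strand: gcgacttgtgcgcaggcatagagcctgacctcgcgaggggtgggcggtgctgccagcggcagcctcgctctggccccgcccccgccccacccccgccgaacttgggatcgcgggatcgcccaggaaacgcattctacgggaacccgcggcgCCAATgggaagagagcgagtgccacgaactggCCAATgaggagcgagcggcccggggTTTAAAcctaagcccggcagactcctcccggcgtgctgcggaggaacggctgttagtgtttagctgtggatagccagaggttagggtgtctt
Ccnb2, chr9:70421505-70421804, minus strand: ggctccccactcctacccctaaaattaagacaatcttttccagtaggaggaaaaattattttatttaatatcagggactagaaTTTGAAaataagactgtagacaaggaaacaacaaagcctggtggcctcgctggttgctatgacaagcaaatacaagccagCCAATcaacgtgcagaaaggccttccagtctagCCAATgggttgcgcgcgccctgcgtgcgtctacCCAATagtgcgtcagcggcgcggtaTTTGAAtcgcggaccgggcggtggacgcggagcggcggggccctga
Cdc20, chr4:118437294-118437593, minus strand: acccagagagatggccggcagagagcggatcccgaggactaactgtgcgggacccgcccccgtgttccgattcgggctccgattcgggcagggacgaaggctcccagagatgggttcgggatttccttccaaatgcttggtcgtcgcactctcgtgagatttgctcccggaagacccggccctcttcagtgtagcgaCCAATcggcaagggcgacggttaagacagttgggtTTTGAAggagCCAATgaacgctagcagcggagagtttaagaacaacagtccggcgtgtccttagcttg
Plk1, chr7:122159185-122159484, plus strand: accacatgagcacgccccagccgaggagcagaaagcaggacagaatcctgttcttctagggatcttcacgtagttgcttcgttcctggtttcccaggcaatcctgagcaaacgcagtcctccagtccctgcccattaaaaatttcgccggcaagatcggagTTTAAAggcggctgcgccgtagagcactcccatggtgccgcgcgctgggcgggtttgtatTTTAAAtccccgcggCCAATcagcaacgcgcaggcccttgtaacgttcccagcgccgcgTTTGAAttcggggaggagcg
Hmmr, chr11:40733388-40733687, minus strand: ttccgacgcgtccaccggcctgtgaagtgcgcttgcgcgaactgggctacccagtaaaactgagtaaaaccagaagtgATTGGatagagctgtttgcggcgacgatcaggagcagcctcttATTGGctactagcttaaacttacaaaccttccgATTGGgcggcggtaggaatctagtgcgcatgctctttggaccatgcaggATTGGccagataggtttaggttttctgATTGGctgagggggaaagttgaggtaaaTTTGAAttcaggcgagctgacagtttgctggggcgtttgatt
Ube2c, chr2:164769679-164769978, plus strand: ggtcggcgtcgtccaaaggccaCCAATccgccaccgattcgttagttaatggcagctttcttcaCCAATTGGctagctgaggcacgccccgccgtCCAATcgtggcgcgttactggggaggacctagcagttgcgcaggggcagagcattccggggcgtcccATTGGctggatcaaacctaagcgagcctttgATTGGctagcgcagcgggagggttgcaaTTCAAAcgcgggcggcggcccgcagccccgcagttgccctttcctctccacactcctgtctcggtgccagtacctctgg
Cenpf, chr1:189688037-189688336, minus strand: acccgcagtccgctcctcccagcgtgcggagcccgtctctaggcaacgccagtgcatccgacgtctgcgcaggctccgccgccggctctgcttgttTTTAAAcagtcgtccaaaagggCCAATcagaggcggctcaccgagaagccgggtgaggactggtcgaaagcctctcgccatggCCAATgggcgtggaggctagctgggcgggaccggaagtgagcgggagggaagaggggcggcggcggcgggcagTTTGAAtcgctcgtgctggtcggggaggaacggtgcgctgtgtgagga

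Each of the 7 windows held TTTGAA or TTTAAA and at least 1 CCAAT. Of them, 6 held TTTGAA, and Ccnb1 held only TTTAAA, 42 bases before the start. All 7 windows held one of these elements that began within 50 bases of the start, against 8.28% of 32851 windows in the table and 5.01% of the 8707 windows of the measured genes. CCAAT was found 6 times in Ube2c, where a pair on opposite strands overlapped, and 5 times in Hmmr, there on the opposite strand each time. CCAAT alone was common, in 37.4% of all windows. Among 439 windows of the genes at least 1.5 times higher in mitotic cells, the score genes left out, 96 (21.9%) had a CHR-type element within 50 bases of the start, while 22 of 289 windows (7.61%) did among genes at least 1.5 times lower. In the DNA replication list this was 3 of 38 windows (7.89%), although 60.5% of them held CCAAT. A match of letters is a description and not a bound site.

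The score had a long tail and no gap at its cut. It was 0 in 6535 cells (50.1%), in which none of the 7 genes was detected, and reached 14.3. The lowest mitotic cell had a score of 5.951 and the highest other cell 5.948, and 198 mitotic and 252 other cells lay within 10% of the lowest mitotic score. The mitotic cells are thus the upper end of a range. Of the 1044 mitotic cells, 259 had all 7 genes detected and 90.6% had at least 5, whereas 26 other cells had all 7. Ube2c, which gave 25.6% of the score on average, was missing in 7 mitotic cells, while Plk1, which gave 7.91%, was missing in 352.

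**Figure D1:**
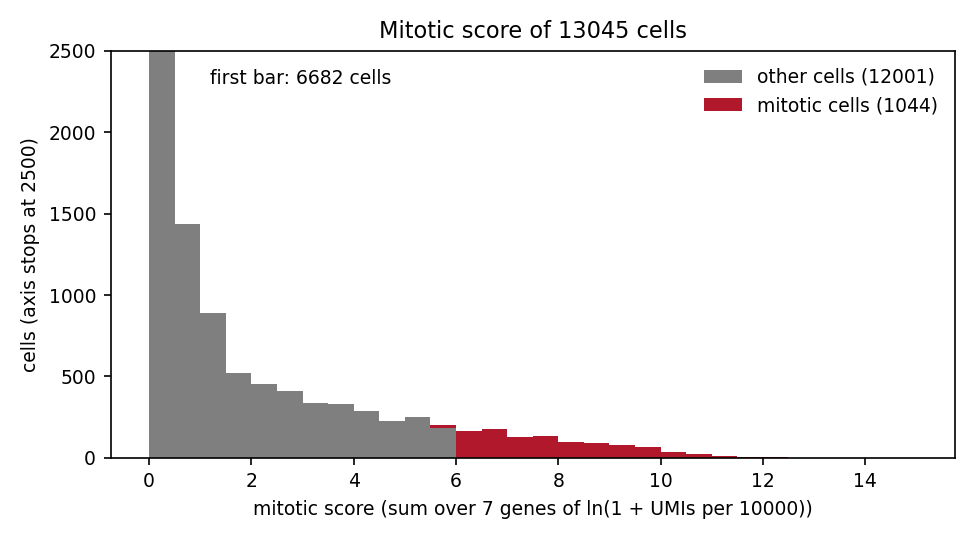
Number of cells (vertical axis, on which the first bar runs off the top) by mitotic score (horizontal axis, summed natural log over 7 genes) in bars of 0.5, with other cells in grey and mitotic cells in red. The first bar holds 6682 cells, and the counts pass the cut near 5.95 without a gap.

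As the rule required, the 7 genes were high in the mitotic cells. Ccnb1 was at 188 CPM in mitotic and 17.7 in other cells, a ratio of 10.6 (9.97 to 11.3). Plk1 was at 110 against 9.41 CPM, with a ratio of 11.7, and Cenpf at 430 against 40.9, with a ratio of 10.5. The ratio of Ube2c was 8.70, of Cdc20 9.16, of Hmmr 8.46 and of Ccnb2 8.0. When each gene in turn was left out of the score and the top 8% were chosen by the remaining 6, between 89.6% and 92.0% of the cells stayed, and the gene left out was still 6.30 times (Ccnb2) to 8.73 times (Plk1) higher in them. Ccnb1 in mitotic cells was at 186 CPM with hashtag 1, 167 with hashtag 2, 165 with hashtag 3, 206 with hashtag 4 and 187 in cells without a hashtag, against 15.4 to 18.2 CPM in other cells of these groups. In every hashtag the level of Ccnb1 in mitotic cells was above that in other cells of any hashtag. Across the mitotic cells the genes hardly varied together, with Pearson correlations between pairs of -0.0949 to 0.104 (1044 cells, 21 pairs), whereas over all 13045 cells they ran from 0.317 to 0.628. All genes of a cell share its depth and enter the sum that was cut, so these correlations are descriptions. Near-empty droplets, with 1 to 100 UMIs, hold free RNA and had Ccnb1 at 41.5 and Ube2c at 146 CPM, above the levels in other cells.

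The spindle, kinetochore, checkpoint and passenger complex lists were higher in the mitotic cells in most of their genes. Of 8462 genes measured (at least 10 CPM over all cells), 459 (5.42%) were at least 1.5 times higher and 308 (3.64%) at least 1.5 times lower in mitotic cells, and the median log2 ratio over all measured genes was 0.03. The limit was taken over all cells, so genes low in other cells, such as Aspm, could pass it through the mitotic cells. With the genes of the score left out, 27 of 33 genes of the spindle list, 21 of 23 of the centromere and kinetochore list, 11 of 13 of the spindle assembly checkpoint list and all 5 of the passenger complex and Aurora kinase list were at least 1.5 times higher, and none was lower. The median log2 ratio was 2.15 for the spindle list, 1.51 for the kinetochore list, 1.54 for the checkpoint list and 2.35 for the passenger complex list.

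In the engine of mitotic entry, 9 of 12 measured genes were higher. Cdk1, the kinase itself, was at 307 CPM in mitotic and 65.8 in other cells, a ratio of 4.66 (4.46 to 4.86), and Ccna2, cyclin A2, had a ratio of 4.70. Wee1, the kinase that holds CDK1 inactive, was higher as well, by 2.62. Ensa, whose protein inhibits a phosphatase that opposes CDK1, had a ratio of 1.04 (0.915 to 1.17). Among 12 genes of the transcription regulator list only Lin9, a subunit of the complex that binds CHR elements (ratio 2.14), and Lin54, its DNA-binding subunit (2.01), passed 1.5, Lin52, another subunit, lay just below 1.5, and E2f1, which drives entry into S phase, was at 0.806 (0.689 to 0.939). Foxm1, a transcription factor of G2 genes, was at 27.3 against 7.10 CPM but lay below 10 CPM over all cells and was not counted.

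Kinetochore and checkpoint genes had large ratios. Cenpa, the histone variant that marks the centromere, was at 284 against 38.7 CPM, a ratio of 7.35 (7.00 to 7.71), and Cenpe, the kinesin that moves chromosomes along microtubules, had a ratio of 7.02. Sgo2a, a shugoshin of the centromere, had a ratio of 5.93, Bub1b, an inhibitor of the anaphase-promoting complex, 5.17, and Bub1, a checkpoint kinase, 5.05. Zwint, a kinetochore protein, was at 189 against 195 CPM, a ratio of 0.972 (0.928 to 1.02), and so stood apart from 21 of the other 22 measured genes of its list, which were at least 1.5 times higher. In the passenger complex and Aurora kinase list, Aurka, the kinase of the spindle poles, had a ratio of 7.52, Cdca8 (borealin) 5.14, Aurkb 5.09, Birc5 (survivin) 4.98 and Incenp 3.91.

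Among spindle genes Aspm, a spindle pole protein, was at 63.4 against 5.44 CPM (ratio 11.7, 10.4 to 13.1). Aspm lay below 10 CPM in other cells and passed that limit over all cells only through the mitotic cells. Nusap1, which bundles spindle microtubules, had a ratio of 8.22, and Kif2c, a kinesin that takes microtubules apart, 7.78. Kif5b, the conventional kinesin of cargo transport, was at 0.969 (0.933 to 1.01). For cytokinesis, the final cut between daughter cells, 10 of 14 genes were higher. Prc1, which crosslinks the central spindle, had a ratio of 6.92, Kif23 6.12 and Ect2, which activates RhoA at the cleavage plane, 5.09, while the septin Sept9 was at 0.882. In the chromosome structure list 19 of 25 genes were higher. Mki67, which coats mitotic chromosomes, had a ratio of 5.28, Top2a, which untangles DNA, 4.87 and the condensin subunit Ncapd2 4.37, while the cohesin subunit Stag2 was at 1.05. Of 13 centrosome genes 12 were higher, with a smaller median log2 ratio of 0.96, and Tubg1, gamma-tubulin, was at 1.48. In the anaphase-promoting complex list only 4 of 18 genes were higher: its activator Fzr1 (2.98), the ubiquitin-conjugating enzyme Ube2s (2.41), its inhibitor Fbxo5 (2.11) and its subunit Anapc5 (1.61), while Anapc2, a subunit of its catalytic core, was at 1.05 (0.948 to 1.17). Of 17 nuclear envelope genes 9 were higher, led by Nup37 (3.07) and the lamin gene Lmnb1 (2.53).

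Outside the lists, the genes with the highest ratios among those of at least 50 CPM were Arl6ip1, which shapes the endoplasmic reticulum (3.75, 3.65 to 3.85), Dbf4, the activator of the replication kinase CDC7 (3.22), Selenoh (2.84), Ccdc34 (2.79), Rangap1, of nuclear transport and the kinetochore (2.48), and Pclaf, a PCNA-binding protein (2.45). Arl6ip1 was at 733 CPM in mitotic, 195 in other and 184 CPM in replication-high cells, as defined next.

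For comparison, replication-high cells were taken as the top 8% by the same recipe over Mcm2, Mcm3, Mcm4, Mcm5, Mcm6, Mcm7, the helicase that opens DNA, and Pcna, the clamp of the DNA polymerases. Both sets shared 91 cells. Of the mitotic cells 8.72% were replication-high, and of the other cells 7.94%. Of 42 measured genes of the DNA replication list, 24 were at least 1.5 times higher in mitotic than in other cells and none lower, with a median log2 ratio of 0.66. Tk1, thymidine kinase, was at 83.3 against 23.9 CPM (ratio 3.49), and Rfc4, a subunit of the clamp loader, had a ratio of 2.46, while Ubr7 was at 0.942. The other cells, of which 54.5% had a score of 0, are a mixed reference. In replication-high cells that were not mitotic, Tk1 was at 75.2 and Mcm6 at 148 CPM, and in mitotic cells Mcm6, one of the genes that chose the replication-high cells, was at 50.1.

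Cyclin E2 drives the start of replication, and its gene stood apart from the DNA replication list. Ccne2 was at 18.1 CPM in mitotic, 43.3 in other and 175 in replication-high cells that were not mitotic. The ratio of mitotic to other cells was 0.418 (0.359 to 0.484), but 0.754 when the top 12% of cells were taken, less than 1.5 times lower, and 0.267 with the top 5%. It was 0.440 within hashtag 4, 0.310 in untagged cells and 0.817 (0.595 to 1.10) within hashtag 1, where the interval includes 1. Within hashtags 2 and 3 it was 0.407 (0.173 to 0.815) and 0.899 (0.463 to 1.58), from 8 and 12 UMIs in mitotic cells. Ccne1, cyclin E1, was at 24.1 against 43.1 CPM, and at 137 in the replication-high cells.

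Along the score the groups of genes peaked in different places. The summed level of the DNA replication list was 810 CPM in cells with a score of 0, 3130 in cells above 2 to 4, 3150 in cells above 4 that were not mitotic, and 2475 in the 348 highest mitotic cells. Ccne2 peaked at 98.9 CPM in cells above 2 to 4 and was at 9.19 CPM in the 348 highest mitotic cells. Between these same classes cells with hashtag 3, in which Ccne2 was highest, went from 24.5% to 0.535% of the cells with 1 hashtag, and cells called doublets from 37.8% to 3.74%, and their part in the course of Ccne2 was not tested. The spindle list went from 2761 to 8040 CPM and the kinetochore list from 415 to 2291 CPM between score 0 and the 348 highest mitotic cells, with no step down on the way. The genes of the score, Cenpf and Hmmr among them, were left out of these sums. The classes were set by the score, so the rise of the lists is a description and not a test. The share of replication-high cells was 1.82% at score 0, 22.3% above 2 to 4 and 6.32% in the 348 highest mitotic cells.

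**Figure D2:**
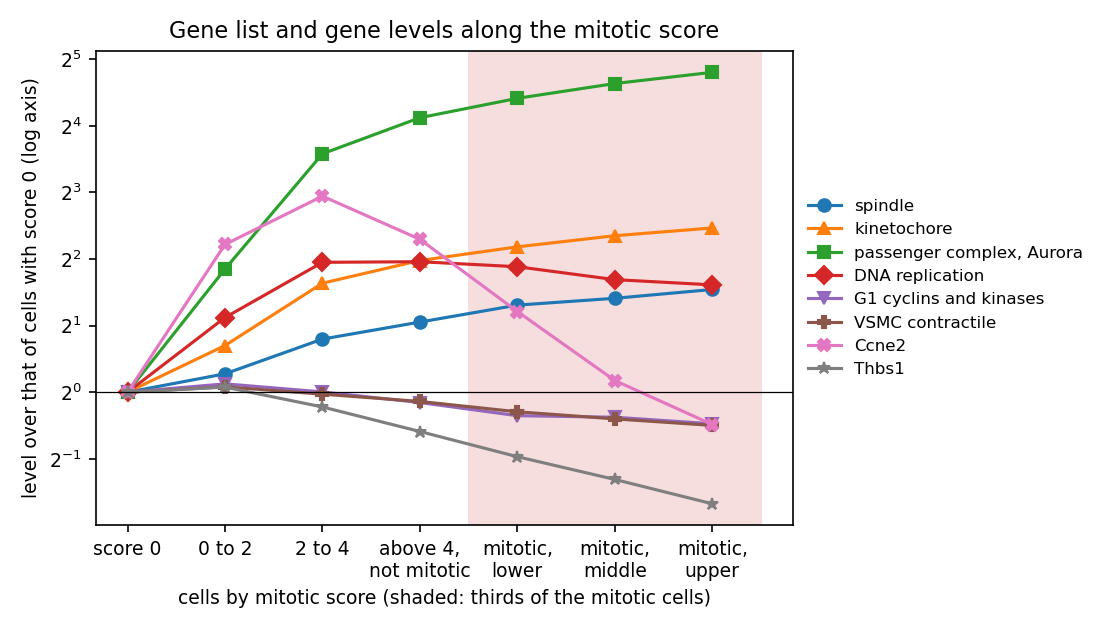
Summed level of 6 gene lists and level of Ccne2 and Thbs1 (vertical axis, ratio to cells with score 0, log axis) in 7 classes of cells along the mitotic score (horizontal axis), with the mitotic cells, in 3 classes of 348, shaded. Ccne2 and the DNA replication list peak before the mitotic cells, the spindle, kinetochore and passenger complex lists climb to the 348 highest mitotic cells, and Thbs1 ends at 567 CPM from 1809 at score 0.

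Of the genes that start a cycle most lay within 1.5 times. Of 12 measured genes of the G1 list, 3 were at least 1.5 times lower, Ccne2, Ccne1 and Ccnd2, and 1 was higher, Rbl1, a relative of the retinoblastoma protein (1.82). Ccnd2, cyclin D2, was at 354 against 798 CPM, a ratio of 0.444 (0.429 to 0.459). It was at 322 CPM in mitotic cells with hashtag 1, 426 with hashtag 2, 447 with hashtag 3 and 386 with hashtag 4, below the 598, 946, 822 and 994 CPM of the other cells of the same hashtags. In all 4 hashtags Ccnd2 was therefore lower in the mitotic cells. Ccnd1, cyclin D1, was at 709 against 850 CPM, a ratio of 0.835, and within hashtag 1 at 562 against 571. Among 23 CDK inhibitors and p53 targets 5 were higher and 1 lower, where 5.42% and 3.64% of all measured genes were. Cdkn3, a phosphatase that acts on CDKs, had a ratio of 7.20, and the INK4 inhibitors Cdkn2d and Cdkn2c had 3.06 and 2.55. Cdkn1b (p27) and Cdkn1c (p57), inhibitors of the other family, had 1.66 and 1.61. Cdkn1a, which encodes p21, was at 736 against 656 CPM (1.12), and Plk2, a polo-like kinase that p53 induces, at 0.605 (0.698 at the top 12%).

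**Figure D3:**
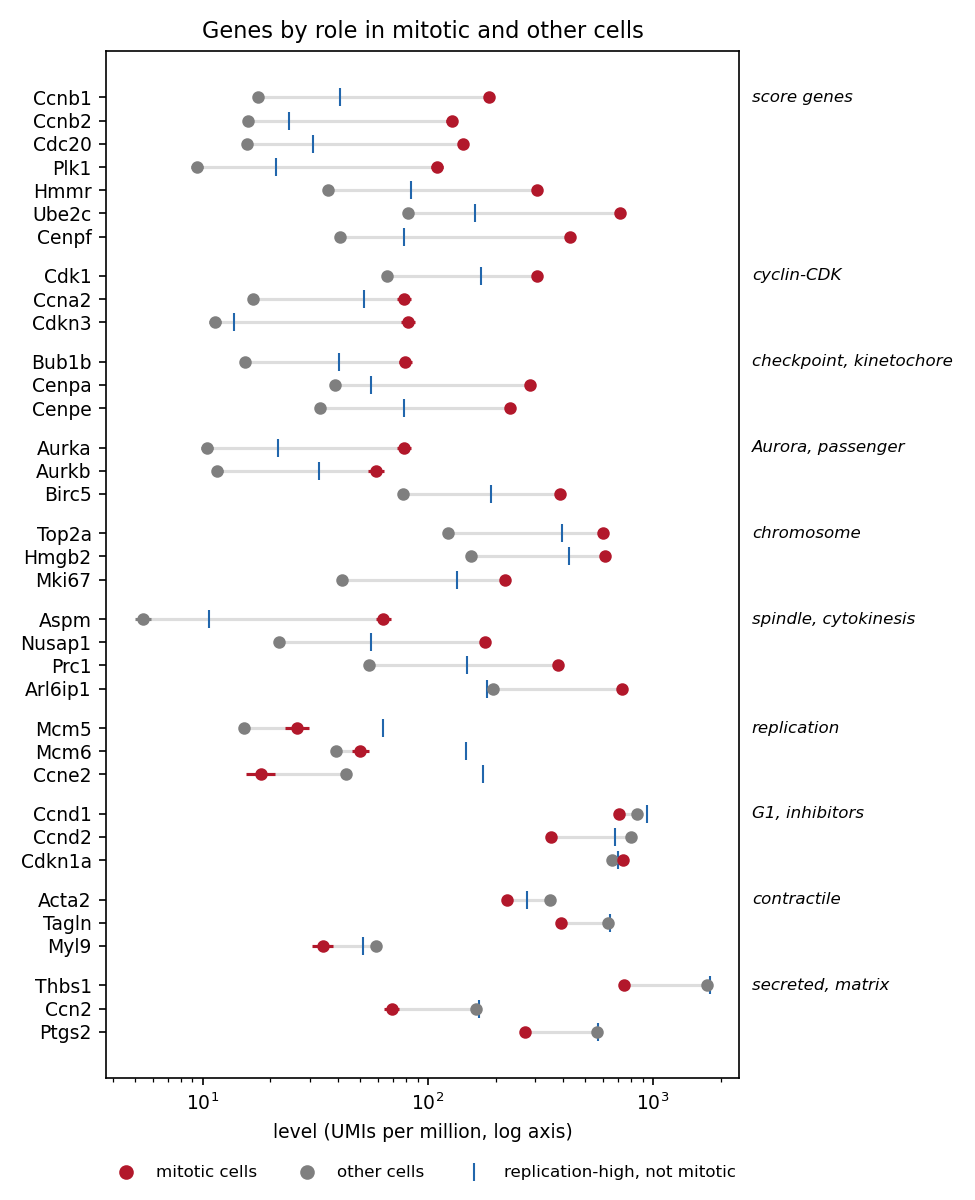
Level (horizontal axis, CPM, log axis) of genes by role in mitotic cells (red) and other cells (grey), with exact Poisson 95% intervals, and in replication-high cells that were not mitotic (blue ticks). Mitotic genes sit to the right in red with the blue ticks between, except for Arl6ip1, whereas the blue ticks lie furthest right for Ccne2 and, since these genes chose the replication-high cells, for Mcm5 and Mcm6. For Thbs1 and Ccn2 the red points lie furthest left.

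Some contractile genes were lower in the mitotic cells, by amounts that differed with the hashtag. Acta2, the smooth muscle actin, was at 224 against 351 CPM (ratio 0.639, 0.612 to 0.667), Tagln, transgelin, at 389 against 629 (0.619), Myl9, the myosin light chain, at 34.1 against 58.9 (0.579) and Lmod1, leiomodin, at 8.18 against 15.5 (0.528). Of the 12 measured genes of the contractile list, 4 were at least 1.5 times lower and 1 was higher, Smtn, smoothelin (1.66), the other 7 lay between, with Csrp1 at 1.01 and Tpm2, a tropomyosin, at 0.914, and the median log2 ratio was -0.46. The ratio of Acta2 did not reach 1.5 times lower at the top 12% of cells (0.706), after thinning to 5000 UMIs (0.697) or with the unlogged score (0.697), and that of Tagln at the top 12% (0.709). Within hashtag 1 that median was -0.13, Acta2 was at 301 against 382 CPM (0.787), and Tagln (0.791), Myl9 (0.787) and Lmod1 (0.961) were not 1.5 times lower either, whereas within hashtag 4 Acta2 was at 58.9 against 186 CPM (0.317, 0.254 to 0.392). With hashtag 2 Acta2 was at 281 against 569 CPM, and with hashtag 3 at 160 against 297 CPM, the former from 151 and the latter from 33 UMIs in mitotic cells. Acta2 was lower in the mitotic cells of every hashtag. Myh11, the smooth muscle myosin that marks mature cells, was at 0.974 CPM in mitotic and 4.74 in other cells, under the 10 CPM limit, so these cultured cells carry Acta2, Tagln and Cald1 (1068 against 1539 CPM) but little Myh11.

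Among the 20 non-muscle actin genes 19 were within 1.5 times, and Diaph3, a formin that assembles actin filaments, was at 284 against 92.5 CPM (3.07). Piezo1 was at 78.0 against 86.8 CPM (0.899, 0.835 to 0.966), and its ratio was 0.993 within hashtag 1 and 1.05 within hashtag 4. It was at 96.7 against 88.1 CPM with hashtag 2 and 68.1 against 109 CPM with hashtag 3. These came from 52 and 14 UMIs in mitotic cells. Piezo2, the related channel, was at 15.7 against 30.8 CPM over all cells (0.509), yet at 0.879 within hashtag 1, and it was the 1 gene at least 1.5 times lower among 6 measured genes of mechanosensitive channels. In the YAP and TEAD list 2 of 12 genes were at least 1.5 times lower, Ccn2, the matricellular target CTGF (0.421), and Ankrd1 (0.490). Ccn2 was at 0.813 within hashtag 1 and at 0.234 within hashtag 4. Of 15 immediate early genes 1, Klf2, was lower (0.588). Beside these counts, 3.64% of all measured genes were at least 1.5 times lower.

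Of the secreted and matrix genes some were lower in the mitotic cells and most lay within 1.5 times. Thbs1, thrombospondin, was at 745 against 1742 CPM (0.428, 0.418 to 0.438), and in mitotic cells it was at 575 CPM with hashtag 1, 1112 with hashtag 2, 1682 with hashtag 3 and 798 with hashtag 4. Each of these lay below the other cells of the same hashtag, by ratios of 0.465 to 0.637. Ptgs2, the inducible cyclooxygenase, was at 271 against 567 CPM (0.478). Serpinb2, which inhibits urokinase, had a ratio of 0.267, but within hashtag 1 this was 0.562. Cemip, which degrades hyaluronan, was at 0.438, Crct1 at 0.384 and Dcn, decorin, at 0.607 (0.704 within hashtag 1). Of 18 genes of the secreted list 7 were at least 1.5 times lower and none higher, and of 15 collagen and matrix genes 3 were lower, Thbs1 and the basement membrane collagens Col4a1 (0.614) and Col4a2 (0.633). The secreted genes were Ptgs2, Csf1 (0.563), Saa3 (0.587), Il6 (0.615), Cxcl1 (0.618), Ccl7 (0.627) and Csf3 (0.629). The secreted list differed with the hashtag. Its median log2 ratio was -0.29 over all cells and -0.71, -0.55, 0.18 and -0.43 within hashtags 1 to 4, so that within hashtag 3, from 19 mitotic cells, it went the other way, with a sum of 19916 CPM in mitotic against 16100 in other cells. Of 17 interferon response genes 2 were lower over all cells, Slfn5 (0.418) and Cxcl10 (0.529), where 3.64% of all measured genes were. The median log2 ratio of that list was -0.12 over all cells, but -0.17, -0.71, -0.97 and -0.71 within hashtags 1 to 4 and -0.90 in untagged cells. The list summed to 6068 CPM in other cells with hashtag 1 against 467 to 1086 in those with hashtags 2 to 4, and hashtag 1 had the highest share of mitotic cells, so the ratio over all cells mixes levels of different hashtags. Of 4 measured fibroblast markers Fbln1 was higher (1.51, but 1.42 after thinning) and Dcn lower. Hist1h2bc, a histone H2B gene, was at 134 against 404 CPM (0.331), and its ratio lay between 0.318 and 0.489 in all 4 hashtags and was 0.324 in untagged cells.

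Of the 459 genes higher over all cells, 302 (65.8%) were at least 1.5 times higher within hashtag 1, within hashtag 4 and in untagged cells alike. Of the 308 lower genes 90 (29.2%) were lower in all 3, and 23 were at or above 1 within hashtag 1. Within hashtag 1, 489 genes (5.78%) were higher and 368 (4.35%) lower, and within hashtag 4, with fewer mitotic cells, 787 (9.3%) were higher and 772 (9.12%) lower. In untagged cells 487 (5.76%) were higher and 568 (6.71%) lower. Several named genes differed between hashtags 1 and 4 in mitotic and in other cells alike. Il1rl1, the IL-33 receptor, was 13.7 times (11.5 to 16.5) higher with hashtag 4 than with hashtag 1 in mitotic cells and 5.08 times in other cells. For Mmp3, a matrix metalloproteinase, these ratios were 5.36 and 2.49, for Ptgs2 3.99 and 3.09, for Spp1, osteopontin, 3.33 and 2.65, and for Acta2 0.196 and 0.487. Others did not go alike: for Tagln the ratios were 0.508 and 1.08, and for Cdk1 0.889 and 1.24. Ifit3, an interferon-induced gene, was low with hashtag 4 in mitotic and in other cells alike. It was at 0.0371 of the hashtag 1 level in mitotic cells, from 18 UMIs, and at 0.0241 in other cells.

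**Figure D4:**
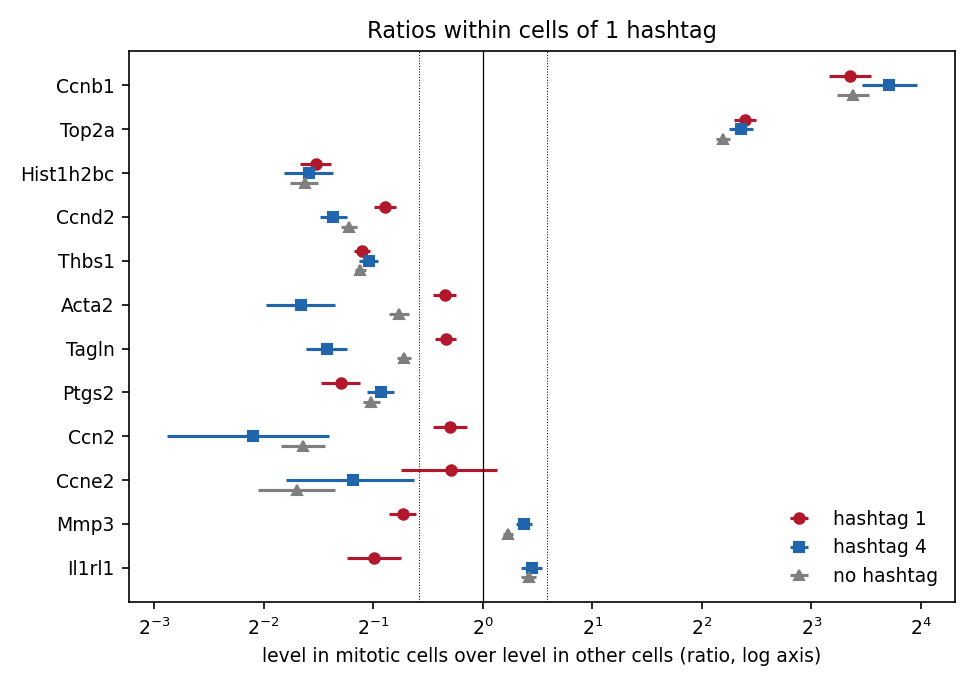
Ratio of the level in mitotic cells to that in other cells (horizontal axis, log axis, exact 95% intervals) for 12 genes within hashtag 1 (red), hashtag 4 (blue) and untagged cells (grey), with dotted lines at 1.5 times. Ccnb1, Top2a, Hist1h2bc, Ccnd2 and Thbs1 lie on one side in all groups, Acta2, Tagln, Ccn2 and Ccne2 lie below 1 but inside the dotted lines in hashtag 1 and beyond them in the other groups, and Mmp3 and Il1rl1 lie on opposite sides in hashtags 1 and 4.

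Hashtags did not enter the rule, and the share of mitotic cells differed between them. It was 10.1% with hashtag 1 (315 of 3117 cells, 9.07 to 11.2), 6.98% with hashtag 2 (40 of 573, 5.03 to 9.38), 1.29% with hashtag 3 (19 of 1468, 0.781 to 2.01) and 8.73% with hashtag 4 (132 of 1512, 7.36 to 10.3). The share with hashtag 3 was the lowest, and hashtag 1 exceeded it 7.81 times (4.92 to 13.1). The ratio of hashtag 1 to hashtag 4 was 1.16 (0.942 to 1.43), an interval that includes 1, and that of hashtag 1 to hashtag 2 was 1.45 (1.04 to 2.07), one that does not. The share with hashtag 2 moved with how hashtags were called, from 4.17% when the highest hashtag had to be at least 3 times the next (192 cells) to 8.63% with a looser quantile of 0.95 (904 cells). Untagged cells had 9.35% (496 of 5307) and cells with several hashtags 3.93% (42 of 1068). The untagged cells held 47.5% of all mitotic cells, which the shares by hashtag do not count. When cells were chosen instead by the 5 genes of the passenger complex and Aurora kinase list, none of which is in the rule, 51.6% of the mitotic cells were chosen again. Hashtag 3 was still lowest at 2.66%, but hashtag 1, at 6.77%, then lay below hashtag 2, at 9.95%, and hashtag 4, at 10.6%. Each hashtag is 1 culture, so the spread between cultures of a group is unknown.

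Replication-high cells followed another order. Their share was 3.98% with hashtag 1 (3.32 to 4.72), 8.20% with hashtag 2 (6.09 to 10.8), 10.4% with hashtag 3 (8.91 to 12.1) and 11.7% with hashtag 4 (10.1 to 13.4). Per replication-high cell there were 2.54 mitotic cells with hashtag 1, 0.851 with hashtag 2, 0.124 with hashtag 3 and 0.746 with hashtag 4. Cells with a score of 0 made up 51.8%, 46.4%, 54.4% and 51.9% of hashtags 1 to 4, and cells above 2 to 4 made up 10.6%, 12.6%, 12.1% and 9.66%. From a score above 4 to the cut, hashtag 3 had 4.02% of its cells, against 6.28% to 7.73% in the others. Over all cells of hashtag 3, Ube2c was at 70.4 CPM against 132 to 161 in the other hashtags and Plk1 at 8.72 against 16.9 to 21.8, while Ccne2 was at 64.8 against 21.2 to 38.9 and Top2a, which is made from S phase on, at 120 against 139 to 193. Ube2c and Plk1 are genes of the score, so their low level with hashtag 3 restates its low share of mitotic cells. The 19 mitotic cells of hashtag 3 had Ccnb1 at 165, Plk1 at 126 and Top2a at 608 CPM, where those of the other hashtags had 167 to 206, 107 to 123 and 487 to 713 CPM. Ccnb1 and Plk1 helped to choose these cells, which all passed the same cut, so likeness in both genes follows from the rule.

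**Figure D5:**
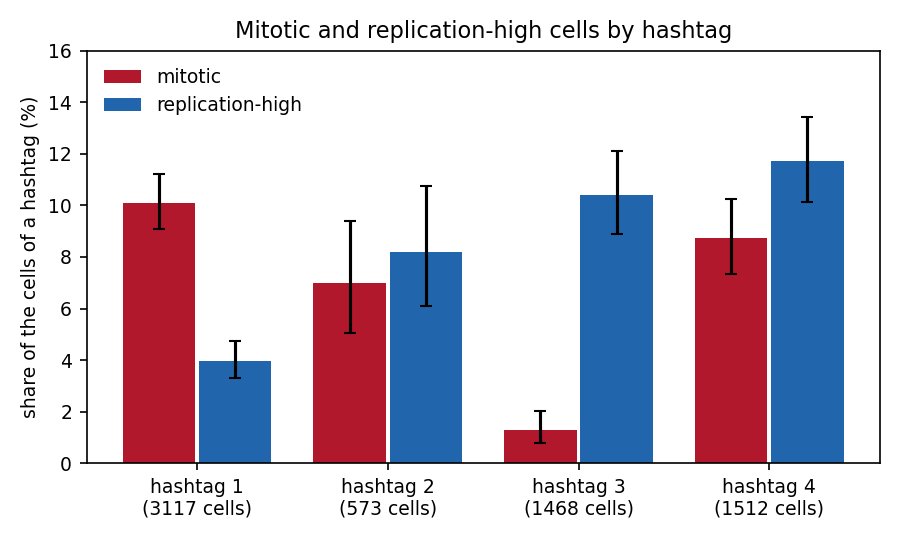
Share of cells (vertical axis, %) that were mitotic (red) and replication-high (blue) within each hashtag, with exact Clopper-Pearson 95% intervals as bars. Hashtag 3 has 1.29% mitotic but 10.4% replication-high cells, and hashtag 1 has 10.1% and 3.98%.

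Several technical measures moved with the mitotic cells, and their part in these values was not tested. The median was 9112 UMIs and 3286 genes in mitotic cells against 7812 UMIs and 2849 genes in other cells, a ratio of 1.17 for UMIs, which lay between 1.14 and 1.26 within hashtags 1 to 4. When cells were thinned to 5000 UMIs each, which left out 2433 cells (747, 28, 130 and 113 from hashtags 1 to 4), the mitotic shares were 10.9%, 6.61%, 1.49% and 7.93%. Among the cells kept, Ccnb1 was then detected in 61.3% of mitotic and 7.16% of other cells. Before thinning it was detected in 80.2% and 11.6%, over all cells with those later left out included. Cells called doublets were 14.9% (12.8 to 17.3) of mitotic and 24.2% of other cells, and 7 of the 19 mitotic cells with hashtag 3 (36.8%). Hashtag UMIs per cell were 1.44 times higher in mitotic than in other cells for hashtag 1 (603 against 419) and 0.904 to 0.963 times for hashtags 2 to 4. Mitochondrial genes took 1.65% of UMIs in mitotic and 1.29% in other cells, and ribosomal protein genes 20.0% and 20.1%. Of the markers of other cell types, the 8 fibroblast markers summed to 454 CPM in mitotic and 646 CPM in other cells, with Dcn the most abundant and none at 0. The 8 macrophage markers summed to 7.50 and 8.46 CPM, with Csf1r the most abundant, and Ptprc and Adgre1 had no UMI in mitotic cells, which allows up to 0.292 CPM by a floor of 3 counts. The 8 endothelial markers summed to 6.43 and 5.65 CPM, and the 8 epithelial markers to 21.2 and 31.7 CPM, with Perp the most abundant.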

How the data were processed

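For 1 pooled library the authors deposited unnormalized UMI counts (2472397 barcodes, 32285 genes, 4 hashtags), which Cell Ranger 4 made per the file header and from which no barcode was removed. Genome build: not given in the sources used here. Barcodes of at least 2218 UMIs and 200 genes were taken as cells, and held 10267210 UMIs in mitotic and 104766476 in other cells (median 7915 per cell over both). Hashtags were called with HTODemux (Seurat 5.3.0, R 4.3.3) at the 0.99 quantile. Doublets were called with Scrublet (scanpy 1.11.5, expected rate 0.1), which marked 23.4% of cells, far above that rate, and were kept. Counts were summed over the cells of a set and divided by the total of that set (CPM, per 1000000). Levels have exact Poisson, shares exact Clopper-Pearson and ratios exact binomial 95% intervals (scipy 1.17.1). On simulated counts of mitotic over other cells (8462 genes, 200 changed by a fold of 2.0), 94.9% of the intervals held the true ratio. The simulated counts were Poisson draws, as the intervals assume, without spread between cells or cultures. The simulation therefore checks the computation and not whether the intervals are wide enough for these cells.

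Genes named were the 7 score genes, the 3 measured genes with the highest and the 1 with the lowest ratio of each of 26 lists, the 6 highest and 6 lowest outside the lists at 50 CPM or more, and genes of the study's comparisons. Wee1, Birc5, Foxm1, Ccne1, Anapc5, Cdkn1b, Cdkn1c, Col4a1, Col4a2, Csf1, Saa3, Il6, Cxcl1, Ccl7, Csf3, Cxcl10, Ankrd1, Myh11, Cald1, Mcm5, Mcm6, Ptprc, Adgre1 and Csf1r were named after their values were seen. A few genes that the rule names are not reported here. The members, the replication-high cells and the lists were chosen with earlier results of these data known. Motifs were matched in 32851 RefSeq promoter windows of 27025 gene symbols. Windows were found for 6777 of the symbols of the measured genes. Other cell filters, cuts, scores, hashtag rules, gene filters, weightings and thinning were tried.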

Additional observations from a re-analysis of the deposited data

Results flagged for a closer look

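Il1rl1 went opposite ways within hashtags: mitotic cells had 0.504 times the level of other cells with hashtag 1 and 1.36 times with hashtag 4. Mmp3 did the same, at 0.603 and 1.30 times. In both, the counting intervals lay on opposite sides of 1. Both genes were flagged by that condition, so it is part of their choice and lends no support to the difference. The differences between hashtags were not tested, since each is 1 culture.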

How the results depend on the processing

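No paired analysis was possible because the study has 1 pooled library and no result comes from a test. Hashtag 3 had the lowest share of mitotic cells under all 10 alternatives, at 0.681% to 2.79%. For hashtags 1 to 4, taking the top 5% gave 6.90%, 5.06%, 0.681% and 5.29%, and the top 12% gave 14.2%, 10.5%, 2.79% and 12.8%, sizes that the cut itself sets. The passenger complex score, chosen after seeing the data, gave 6.77%, 9.95%, 2.66% and 10.6%. Keeping only cells whose highest hashtag was at least 3 times the next gave 4.17% for hashtag 2 (192 cells, from 573) and 6.91% for hashtag 4 (492 cells, from 1512), and the 0.95 quantile gave 8.63% and 9.70%. Counts of genes follow the filter: at 50 CPM 112 were higher and 96 lower of 3287, and with no filter 2906 and 2378 of 19039, many from few UMIs. Within hashtag 4 alone, added after seeing the data, 787 were higher and 772 lower. The median log2 ratio of the DNA replication list was 0.50 at the top 5%, 0.85 at the top 12%, 0.95 within hashtag 1 and 0.85 within hashtag 4. That of the contractile list was -0.13 within hashtag 1. The ratio of median UMIs was 1.27 with cells from 1000 UMIs, 1.06 with cells from 5000 UMIs, 1.10 with the unlogged score and 1.26 within hashtag 1. The cause of these moves was not tested. Of 76 named genes past 1.5 times, 71 stayed past it under all 8 alternatives set along with the design and 64 when hashtags 1 and 4 alone were added, and none changed direction. Lmod1, Myl9, Dcn, Ccn2 and Piezo2 were among those lost within hashtag 1 (0.961, 0.787, 0.704, 0.813 and 0.879). The 5 lost under the former were Ccne2, Plk2 and Tagln (0.754, 0.698 and 0.709 at the top 12%), Acta2 (0.706 there, 0.697 after thinning and 0.697 with the unlogged score) and Fbln1 (1.42 after thinning). With 1 culture per hashtag and 19 mitotic cells in hashtag 3, the counting intervals are the only error that can be given.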
